A study of Oreochromis mossambicus with 6 samples.

Results

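Chloride channels of the ClC family and cftr were examined in gill filaments of hypophysectomized tilapia injected with ovine prolactin (oPrl) or saline vehicle. The members were every gene whose symbol begins with clcn in the deposited count table, together with clc2c (ENSONIG00000019823), clcn2c (ENSONIG00000010801) and cftr (ENSONIG00000003911). The table gives no symbol to ENSONIG00000019823, and the name clc2c is the one the study uses for it. Of 12 genes found in this way, 11 had at least 10 counts summed over the 6 libraries and were described among 24878 genes tested. The excluded gene was clcnk (ENSONIG00000006556), named for a renal ClC channel of mammals, which had 0 counts in each oPrl library and 0, 0 and 2 counts in the vehicle libraries. A count of 0 allows up to 3 counts, which corresponds to 0.0849 to 0.0921 CPM (counts scaled to a common library size) in the oPrl libraries. Only 17210 of the 32591 genes in the table carry a symbol, so that a ClC gene without one would not have been found.

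All fish were wild-type male Mozambique tilapia (Oreochromis mossambicus) whose pituitary had been removed. One group (n = 3) received oPrl at 5 μg per g body weight, and the other (n = 3) received saline vehicle. Following surgery, fish recovered for 5 days at 12 ppt and were injected 3 times, 48 h apart, before filaments were taken 24 h after the last injection. Hypophysectomy removes every pituitary hormone in both groups, fish were not fed, and the hormone came from sheep, which limits the experiment as a model of the fish's own prolactin (Prl). The libraries came from a subset of the fish in the injection experiment.

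ClC proteins fall into plasma membrane Cl- channels and Cl-/H+ exchangers of endosomes and lysosomes. Cftr belongs to another family, the ABC transporters, and forms a Cl- channel that opens after phosphorylation by protein kinase A. In tilapia gills, ionocytes of the 'freshwater type' take up Na+ and Cl- through the cotransporter Ncc2, and Clc2c is a candidate route for the exit of Cl- into the blood. Ionocytes of the 'seawater type' load Cl- through Nkcc1, the product of slc12a2, and release it to the water through apical Cftr. Prl is known as the hormone of fresh water acclimation in these fish, and cortisol as a hormone of seawater acclimation.

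The oPrl libraries held 30516271 to 32959492 counts on genes and the vehicle libraries 21643589 to 35976655. Genes that mark the tissue were present. Their levels were not all alike between the groups. The gene foxi3b, an ionocyte transcription factor, had 149 to 170 CPM with oPrl and 118 to 162 CPM with vehicle, and gcm2, a gene of gill development, had 62.9 to 94.7 CPM with oPrl and 44.1 to 107 CPM with vehicle, whereas ca2, for a carbonic anhydrase, had 463, 106 and 224 CPM with oPrl and 1018, 641 and 1093 CPM with vehicle, without overlap. The log2 fold change of ca2 was -1.80, past the threshold by DESeq2 (adjusted p = 0.00249) but not by edgeR (adjusted p = 0.088), and foxi1, another factor of this family, had 1.63 to 4.53 CPM with oPrl and 2.39 to 7.57 CPM with vehicle. Another gene of the ionocyte markers, kcnj1a.6, is described beside cftr, and the part of these differences in the results was not tested. Summed over the 7 erythrocyte genes found, levels ranged from 328 to 672 CPM with oPrl and from 218 to 380 CPM with vehicle. The 8 leukocyte genes summed to 1638 to 1841 CPM with oPrl and 1667 to 2067 CPM with vehicle. Of these, lck lay higher with oPrl (65.1 to 68.8 against 42.8 to 51.2 CPM) and csf1ra lower (166 to 234 against 277 to 317 CPM), without overlap. The 5 endothelial genes summed to 104 to 133 CPM with oPrl and 84.9 to 114 CPM with vehicle. Among them, cdh5 and kdrl lay higher with oPrl and pecam1 lower, without overlap. The 7 epithelial genes summed to 6581 to 10426 CPM with oPrl and 11547 to 12576 CPM with vehicle, without overlap. They did not all go this way. While krt5 and krt8 lay lower with oPrl without overlap, tp63 lay higher, at 244 to 366 CPM against 173 to 215 CPM with vehicle. The groups overlapped in epcam and the krt18 genes. Groups lay apart without overlap in 29% of all genes tested. For lck, csf1ra, cdh5, kdrl, pecam1, krt5, krt8 and tp63, adjusted p lay between 0.0722 and 0.353 (edgeR). The part of the epithelial, leukocyte and endothelial genes in the results below was not tested. Filaments hold many cell types, and more cells of a type cannot be told apart from more RNA per cell.

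A gene was called where edgeR's quasi-likelihood fit gave it an adjusted p below 0.01 and a log2 fold change above 1 or below -1. By this rule 1 of the 11 members, clc2c, was higher with oPrl, and none was lower. Over all genes tested, 0.715% were called higher and 0.687% lower with oPrl, or 1.4% in either direction. With library totals in place of TMM scaling, 358 genes were called higher and 147 lower, compared with 178 and 171, and the median of all genes moved by 0.17 on the log2 scale. At an unadjusted p under 0.05 there were 2 members, clc2c and clcn2c, against 21.7% of all genes, and at an adjusted p under 0.05 there was 1, clc2c, against 6.11%. DESeq2 also called clc2c alone among the members, compared with 6.01% of all genes. The median log2 fold change of the members was 0.21, compared with 0.02 over all genes, with 6 members above 0 and 5 below. Groups lay apart without overlap in 2 members, clc2c and clcn2c, both higher with oPrl. This was so for 29% of all genes tested, 16.3% higher and 12.7% lower.

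**Figure D1:**
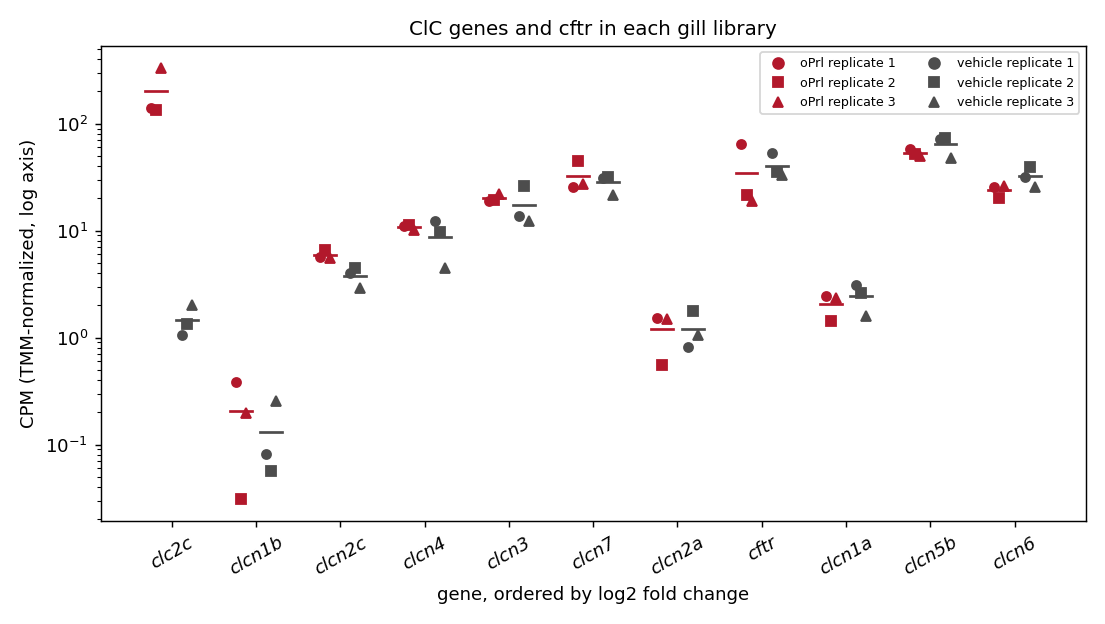
Normalized CPM of each ClC gene and of cftr in every library, on a log axis, with oPrl fish in red at the left and vehicle fish in grey at the right of each gene, a symbol per replicate number and a bar at the group mean. For clc2c the oPrl fish lay between 135 and 334 CPM and the vehicle fish between 1.05 and 2.04 CPM, whereas the groups of the other genes lay close together or overlapped.

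Among the plasma membrane channels, clc2c had 139, 135 and 334 CPM in oPrl replicates 1 to 3 and 1.05, 1.34 and 2.04 CPM in vehicle replicates 1 to 3. The lowest oPrl fish was thus 66.2 times the highest vehicle fish. Within the oPrl group, replicate 3 was 2.48 times replicate 2, and within the vehicle group the highest fish was 1.93 times the lowest. The raw counts behind these values were 4716, 4389 and 11820 with oPrl and 26, 47 and 40 with vehicle. The vehicle counts were thus above 0 in every fish, and the smallest, 26, had an exact 95% Poisson interval of 17.0 to 38.1 counts, which covers counting error only. The log2 fold change of clc2c was 7.12 (standard error 0.52, 95% interval 5.91 to 8.33, adjusted p = 0.00184, edgeR's quasi-likelihood test), which ranked 19 by p among all genes. Leaving out 1 library at a time, the value lay between 6.55 and 7.40, and the call was lost when vehicle replicate 1 (adjusted p = 0.0179, edgeR) or vehicle replicate 2 (adjusted p = 0.0131, edgeR) was left out.

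A second gene of the ClC-2 type, clcn2c, had 5.62, 6.54 and 5.57 CPM in oPrl fish and 4.05, 4.46 and 2.90 CPM in vehicle fish. Its oPrl fish were all above its vehicle fish, but the difference was small beside that of clc2c. The log2 fold change was 0.63 (standard error 0.26, 95% interval 0.02 to 1.25), and it was not called (adjusted p = 0.221 by edgeR and 0.129 by DESeq2). Reads that fit both genes equally well were left out by the authors' unique counting, and related genes may still share reads in counts per gene. The libraries are from Mozambique tilapia and the genome from Nile tilapia, so that a gene's count also depends on how well the species match there.

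The third gene of this type, clcn2a, had 1.54, 0.553 and 1.499 CPM with oPrl and 0.810, 1.76 and 1.07 CPM with vehicle, and the groups overlapped. Its log2 fold change was -0.03 with a 95% interval of -1.26 to 1.204 (adjusted p = 0.985, edgeR). In mammals, ClC-2 channels are found in many epithelia and open upon hyperpolarization. The 3 genes therefore differed in their readout: clc2c was called, while the intervals of clcn2c and clcn2a ended at 1.25 and 1.204, well under the 5.91 at which that of clc2c began.

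The counts of clc2c and clcn2c were also compared within each fish, where library size cancels. The count ratio of clc2c to clcn2c was 24.8, 20.6 and 60.0 with oPrl and 0.260, 0.299 and 0.702 with vehicle. On the log2 scale this ratio was 4.97 ± 0.82 with oPrl and -1.40 ± 0.78 with vehicle (SD, n = 3 each; exact permutation test, two-sided, p = 0.1, adjusted p = 0.15 over 3 pairs). A p of 0.1 is the smallest that 3 fish against 3 allow. Since the genes differ in length, the ratio tells how the genes moved between fish and not which had more transcripts.

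The remaining plasma membrane channels are clcn1a and clcn1b, relatives of the mammalian skeletal muscle channel. The expression of clcn1a was 2.45, 1.44 and 2.32 CPM with oPrl and 3.12, 2.61 and 1.58 CPM with vehicle, with overlapping groups and a log2 fold change of -0.24 (95% interval -1.14 to 0.67, adjusted p = 0.784, edgeR). For clcn1b there were 13, 1 and 7 counts with oPrl and 2, 2 and 5 counts with vehicle, and all libraries were under 1 CPM. Its log2 fold change of 0.72 had a 95% interval of -1.57 to 3.005 (adjusted p = 0.732, edgeR). The interval was wide and held changes in either direction. Skeletal muscle genes (15 found) summed to 45.7, 39.6 and 69.0 CPM with oPrl and 90.1, 23.95 and 127 CPM with vehicle. Vehicle replicate 2, with the lowest muscle sum, had the second highest clcn1a of its group, and the part of muscle tissue in these values was not tested.

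**Figure D2:**
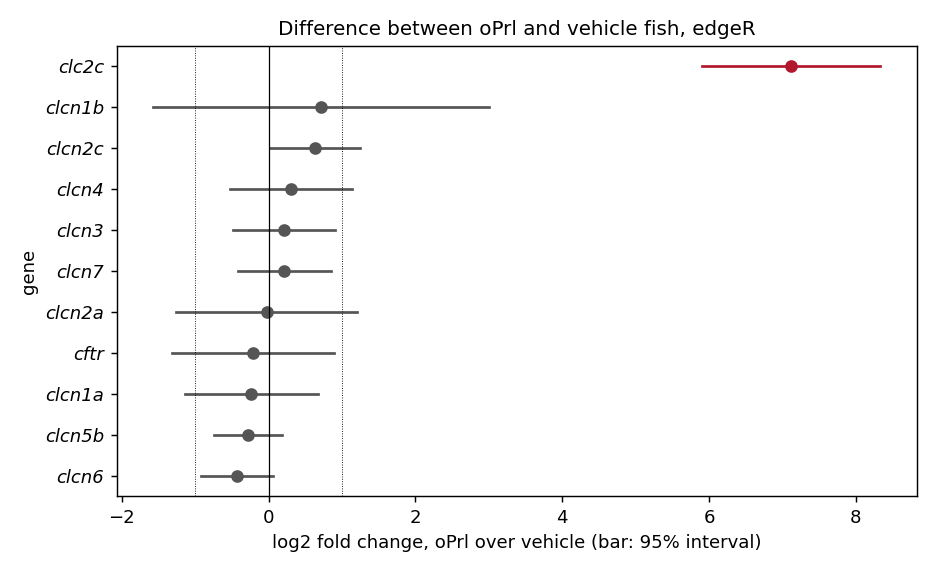
Log2 fold change of each member, oPrl over vehicle, from edgeR's quasi-likelihood fit, with its 95% interval; dotted lines mark an absolute log2 fold change of 1, and red marks the called gene. The interval of clc2c ran from 5.91 to 8.33, and those of cftr and of all ClC genes other than clc2c and clcn2c included 0.

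The intracellular exchangers were clcn3, clcn4, clcn5b, clcn6 and clcn7. None of these 5 was called by edgeR or DESeq2, against 1.4% and 6.01% of all genes. None had an unadjusted p under 0.05 (edgeR), against 21.7% of all genes. The groups overlapped in all 5, whereas 29% of all genes had groups without overlap. For only 5 genes, these counts do not set the exchangers apart from genes in general. Their log2 fold changes lay between -0.43 and 0.30, and their adjusted p was 0.295 or more (edgeR). The 95% intervals ran from -0.92 at the lowest to 1.13 at the highest, so that a change as large as that of clc2c was outside all 5.

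Of these, clcn6, an exchanger of late endosomes in mammals, had the lowest log2 fold change, at -0.43 (standard error 0.21, 95% interval -0.92 to 0.06, adjusted p = 0.295, edgeR). It had 25.6, 20.2 and 26.2 CPM with oPrl and 31.7, 39.4 and 25.6 CPM with vehicle. Vehicle replicate 3 fell within the range of the oPrl fish, and the other vehicle fish lay above it. The gene clcn5b is a relative of the endosomal exchanger that is mutated in Dent disease of the human kidney. It had 57.5, 52.2 and 49.5 CPM with oPrl and 71.4, 74.0 and 47.6 CPM with vehicle, with a log2 fold change of -0.28 (95% interval -0.74 to 0.18, adjusted p = 0.477, edgeR). As in clcn6, replicate 3 was the lowest vehicle fish. In clcn5b it lay below all oPrl fish, and the other vehicle fish lay above all of them.

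In clcn7, the exchanger of lysosomes and of the bone-resorbing membrane of mammalian osteoclasts, CPM were 25.6, 45.1 and 27.2 with oPrl and 31.0, 32.0 and 21.5 with vehicle. The highest value belonged to oPrl replicate 2, and without that library the log2 fold change of 0.21 (95% interval -0.42 to 0.84) turned to -0.10. Its accessory subunit ostm1, which mammalian ClC-7 needs for stability, was likewise highest in oPrl replicate 2, at 28.8, 40.4 and 32.4 CPM with oPrl and 27.6, 26.2 and 33.9 CPM with vehicle. The log2 fold change of ostm1 was 0.21 (adjusted p = 0.584, edgeR). The other partner found among the ClC accessory genes, mlc1, had 10 counts in all.

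The exchangers clcn3 and clcn4 act in endosomes of mammalian cells, where they can pair with each other. Expression of clcn3 was 18.7, 19.4 and 22.0 CPM with oPrl and 13.6, 25.9 and 12.4 CPM with vehicle (log2 fold change 0.21, 95% interval -0.48 to 0.90). Expression of clcn4 was 11.2, 11.3 and 10.2 CPM with oPrl and 12.2, 9.69 and 4.43 CPM with vehicle (log2 fold change 0.30, 95% interval -0.52 to 1.13). In both genes the oPrl fish lay closer together than the vehicle fish, with coefficients of variation of 8.53% and 5.74% with oPrl and 43.4% and 45.3% with vehicle. Over all genes tested the median coefficient was 24.4% with oPrl and 25.9% with vehicle.

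Within the vehicle group, replicate 3 had the lowest value in 8 of the 11 members, whereas it was the lowest vehicle fish in 38.1% of all genes. It was also the vehicle library with the fewest counts, 21643589. For clc2c the pattern was the opposite, since vehicle replicate 3 had the highest value. Without vehicle replicate 3, clcn4 had a log2 fold change of -0.01, clc2c one of 7.40, and no other member was called.

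The expression of cftr was 64.0, 21.5 and 19.0 CPM with oPrl and 52.8, 35.0 and 32.8 CPM with vehicle. One oPrl fish, replicate 1, was above all vehicle fish, and the others were below all of them. The highest oPrl fish was 3.38 times the lowest, compared with 1.61 times among vehicle fish. The coefficient of variation was 72.7% with oPrl and 27.3% with vehicle, against a median of 26.5% with oPrl and 32.2% with vehicle over the members. The log2 fold change was -0.21 (standard error 0.47, 95% interval -1.31 to 0.90, adjusted p = 0.850, edgeR), and the interval held changes in either direction. Without oPrl replicate 1 it was -0.99, with a 95% interval of -1.64 to -0.34 and an adjusted p of 0.116 (edgeR). That fit removed the most distant oPrl fish, and its standard error was 0.27. Without oPrl replicate 2, oPrl replicate 3 or vehicle replicate 1 the log2 fold change was 0.04, 0.09 and 0.03. Without vehicle replicate 2 or 3 it was -0.315 and -0.321. The intervals of all fits other than that without oPrl replicate 1 included 0. The study measured cftr by quantitative PCR in the complete injection experiment, with more fish per group, and found it lower with oPrl.

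The fish with the highest cftr, oPrl replicate 1, was compared with the other fish in genes named after their values were seen. Expression of slc12a2 (ENSONIG00000011322), which encodes the cotransporter Nkcc1 that brings Cl- into the cell, was 211, 88.5 and 80.5 CPM with oPrl and 231, 185 and 95.7 CPM with vehicle. For CLDN10 (ENSONIG00000008478), a claudin of cation-permeable tight junctions, the values were 52.9, 15.6 and 14.8 CPM with oPrl and 78.5, 42.8 and 69.2 CPM with vehicle. The neighbouring symbol cldn10l2 had 60.9, 20.5 and 14.7 CPM with oPrl and 24.6, 19.3 and 51.8 CPM with vehicle. In all of these, oPrl replicate 1 was the highest oPrl fish by more than the distance between the other oPrl fish, although it was below vehicle replicate 1 in slc12a2 and below vehicle replicates 1 and 3 in CLDN10. None was called, with log2 fold changes of -0.43, -1.19 and 0.01 and adjusted p of 0.642, 0.237 and 0.996 (edgeR). Since these genes were named after their values were seen, the likeness is a description. Among further cldn10 and foxi genes, cldn10b (1.39, 0 and 0 CPM with oPrl) shared the spread. The genes cldn10a (1.98, 0.583 and 1.47 CPM with oPrl), foxi1, foxi2 and foxi3b did not.

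The potassium channel kcnj1a.6 (ENSONIG00000021375), whose mammalian relative recycles K+ beside the Na+/K+/Cl- cotransporter in the kidney, did not share this spread. It had 39.1, 43.6 and 38.9 CPM with oPrl and 360, 258 and 161 CPM with vehicle, and it fell with a log2 fold change of -2.68 (standard error 0.29, adjusted p = 0.00475, edgeR). The oPrl fish lay close together, oPrl replicate 1 included. Of the fits with a library left out, only that without vehicle replicate 3 kept kcnj1a.6 past the threshold (adjusted p up to 0.0310 in the others), while DESeq2 called it too.

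**Figure D3:**
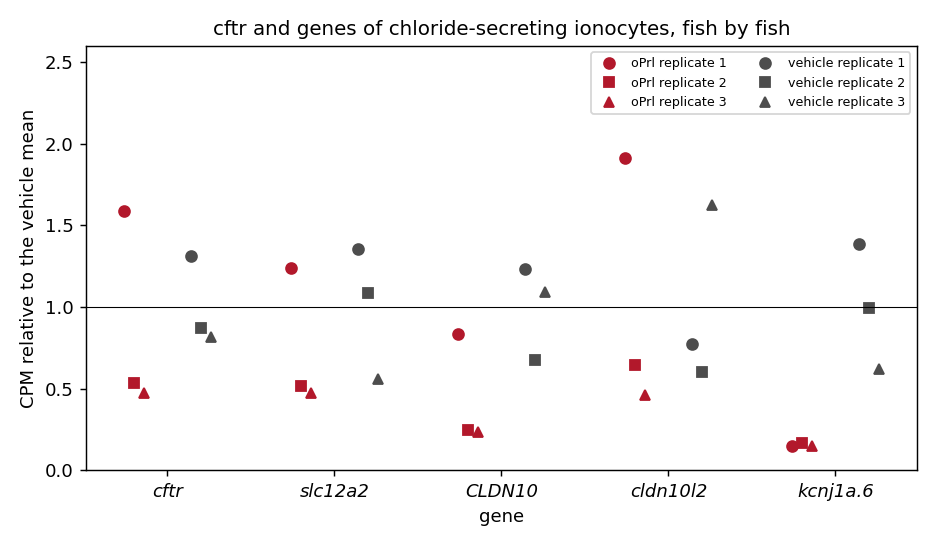
Expression of cftr, slc12a2, CLDN10, cldn10l2 and kcnj1a.6 in each fish relative to the mean of the vehicle fish (horizontal line at 1), with oPrl fish in red at the left and vehicle fish in grey at the right. In cftr, slc12a2, CLDN10 and cldn10l2, oPrl replicate 1 (red circle) stood above the other oPrl fish, whereas for kcnj1a.6 the oPrl fish lay together between 38.9 and 43.6 CPM.

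The sum of the erythrocyte genes was also highest in oPrl replicate 1, at 672 CPM. In oPrl replicates 2 and 3 it was 328 and 424 CPM, and in the vehicle fish 218 to 380 CPM. The genes did not all share this order. While rhag (374, 42.9 and 288 CPM with oPrl), alas2 and gata1a were highest in oPrl replicate 1, slc4a1a and klf1 were highest in oPrl replicate 2. The genes hbae5 and hbbe3 were highest in vehicle replicate 3. The part of erythrocytes in cftr was not tested. The count ratio of clc2c to cftr was 2.18, 6.28 and 17.6 with oPrl and 0.0199, 0.0382 and 0.0620 with vehicle. On the log2 scale it was 2.64 ± 1.51 with oPrl and -4.79 ± 0.82 with vehicle (SD, n = 3 each; exact permutation test, two-sided, p = 0.1, adjusted p = 0.15 over 3 pairs). For clcn2c over cftr the log2 ratio was -2.33 ± 1.02 with oPrl and -3.39 ± 0.38 with vehicle (SD, n = 3 each; exact permutation test, two-sided, p = 0.3).

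Of all counts on the 11 members, clc2c took 39.6%, 43.1% and 67.1% in oPrl fish and 0.475%, 0.590% and 1.34% in vehicle fish. Exact (Clopper-Pearson) 95% intervals were narrow beside these differences, reaching at most 1.82% for clc2c in a vehicle fish and at least 38.7% in an oPrl fish, and they cover counting error only. The summed CPM of the ClC genes without clc2c was 149, 157 and 145 in oPrl fish and 168, 190 and 117 in vehicle fish. Without clc2c the sums thus overlapped between the groups.

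The profiles most like those of clc2c, clcn2c and cftr were sought among genes averaging 5 CPM or more, by the root-mean-square difference of log2(CPM + 1) over the 6 libraries after each gene's own mean was removed. The closest to clc2c was ENSONIG00000007896, with a difference of 0.096. This gene has no symbol in the table and is called ncc2 here, after the study's name for the Na+/Cl- cotransporter gene. It had 163, 144 and 337 CPM with oPrl and 1.30, 1.25 and 2.04 CPM with vehicle, so that oPrl replicate 3 stood above the other oPrl fish in both genes. Like clc2c, ncc2 lost its call without vehicle replicate 1 or 2 (adjusted p up to 0.0153, edgeR). The gene ENSONIG00000003498, which has no symbol in the table, was also among the nearest, at a difference of 0.89, with 33.7, 97.7 and 54.2 CPM with oPrl and 0.769, 0.597 and 0.916 CPM with vehicle. There oPrl replicate 2 had the highest value, unlike in clc2c. All genes were read in the same 6 libraries, so that the likeness is a description.

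For clcn2c the closest profiles were those of sec31a, ap2b1 and hdac6, with differences of 0.022, 0.028 and 0.031. These genes encode a coat protein of vesicles leaving the endoplasmic reticulum, an adaptor of clathrin-coated vesicles and a cytoplasmic deacetylase. Their log2 fold changes were 0.55, 0.54 and 0.52, and none was called. For cftr the closest were ENSONIG00000014889, ENSONIG00000013755 and ENSONIG00000027210, which have no symbol in the table, with differences of 0.18, 0.24 and 0.26. The gene ENSONIG00000013755 had 271, 71.4 and 73.2 CPM with oPrl and 215, 172 and 180 CPM with vehicle, again with oPrl replicate 1 apart from the other oPrl fish.

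Genes of other families that hold Cl- channels were compared as well. They were picked by symbol, so that not all of them need encode a Cl- channel. The list held anoctamins, bestrophins, tweety proteins, volume-regulated channels and Clic proteins, and it also took in tmem206 and clns1a. Of its 32 tested genes, 1 was called lower and 0 higher, against 0.687% and 0.715% of all genes. Their median log2 fold change was -0.08. The called gene was ano1 (ENSONIG00000018097), whose mammalian product is a Ca2+-activated Cl- channel of secretory epithelia. It had 69.4, 82.6 and 78.5 CPM with oPrl and 194, 184 and 162 CPM with vehicle, and it fell with a log2 fold change of -1.23 (standard error 0.15, adjusted p = 0.00648, edgeR). The groups did not overlap, and the oPrl fish were all under the lowest vehicle fish by a wide margin. With a library left out, ano1 was past the threshold only without vehicle replicate 3, with adjusted p of up to 0.0394 in the other fits (edgeR).

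Of 10 tested relatives of cftr in ABC subfamily C, abcc5, which encodes an exporter of cyclic nucleotides and other organic anions in mammals, was called lower and none higher. It had 15.1, 17.1 and 19.0 CPM with oPrl and 39.6, 41.7 and 44.0 CPM with vehicle, a log2 fold change of -1.29 (standard error 0.16, adjusted p = 0.00699, edgeR). Each group was tight and the groups lay apart. The median over these relatives was 0.46, and 0.687% of all genes were called lower and 0.715% higher. With any 1 library left out, abcc5 was not past the threshold (adjusted p of 0.0136 to 0.0356, edgeR), while its log2 fold change stayed between -1.37 and -1.21. Over all genes, these fits called 0 to 215, compared with 349 with every library.

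Among 21 tested genes with SLC26 and SLC4 symbols, which encode anion exchangers and bicarbonate cotransporters, 1 was called higher and 1 lower. Over all genes 0.715% were called higher and 0.687% lower, and the median of the list was 0.01. The list also took in slc4a1ap, which encodes an adaptor and no transporter. The gene slc4a4b, for a Na+/HCO3- cotransporter, rose to 181, 184 and 284 CPM with oPrl, against 49.1, 55.5 and 71.5 CPM with vehicle (log2 fold change 1.88, standard error 0.24, adjusted p = 0.00753, edgeR). As for clc2c, oPrl replicate 3 had the highest value. The gene slc26a11, for an anion transporter of the SLC26 family, fell to 28.2, 26.5 and 29.6 CPM with oPrl, against 82.2, 69.3 and 82.6 CPM with vehicle (log2 fold change -1.47, standard error 0.15, adjusted p = 0.00403, edgeR). With any 1 library left out, slc4a4b was not past the threshold (adjusted p up to 0.0474, edgeR), and slc26a11 was past it only without oPrl replicate 2 (adjusted p up to 0.0285 in the others, edgeR).

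Of 23 tested regulators of CFTR known from mammals, edgeR called 1 higher and 0 lower, with a median of -0.09, and DESeq2 called 1 higher and 2 lower. Over all genes, edgeR called 1.4% and DESeq2 6.01% in either direction. The called gene was AHCYL1 (ENSONIG00000018939), whose mammalian namesake encodes IRBIT, which binds CFTR and the bicarbonate cotransporter of SLC4A4. It rose to 160, 227 and 306 CPM with oPrl, against 73.8, 66.2 and 68.5 CPM with vehicle (log2 fold change 1.73, standard error 0.24, adjusted p = 0.00942, edgeR). The other copy, written ahcyl1 in the table, had a log2 fold change of -0.43 (adjusted p = 0.415, edgeR). The call of AHCYL1 did not hold without any 1 library (adjusted p of 0.0134 to 0.04999, edgeR) or with the size factors of DESeq2 in edgeR (adjusted p = 0.0104). The kinase gene SGK1, which the study picked from these libraries, had 71.0, 202 and 81.1 CPM with oPrl and 601, 516 and 485 CPM with vehicle. With a log2 fold change of -2.18 it was past the threshold by DESeq2 but not by edgeR (adjusted p = 0.0239). By quantitative PCR in the complete injection experiment, with more fish per group, the study found sgk1 lower with oPrl. The other gene lower by DESeq2, dab2, for an endocytic adaptor, had 58.6, 35.2 and 63.5 CPM with oPrl and 101, 106 and 132 CPM with vehicle (log2 fold change -1.11 and adjusted p = 0.0426 by edgeR).

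Of 12 tested genes of the WNK and SPAK kinases and their partners, which set the phosphorylation of Cl- cotransporters in mammals, edgeR called 0 and the median was 0.10. At an unadjusted p under 0.05 there were 3, against 21.7% of all genes, and DESeq2 called 1, against 6.01%. The lowest p was that of wnk4b, which had 16.9, 11.7 and 8.82 CPM with oPrl and 38.2, 19.7 and 39.1 CPM with vehicle. Its log2 fold change was -1.37 (adjusted p = 0.0609, edgeR), and DESeq2 called it (adjusted p = 0.00200).

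**Figure D4:**
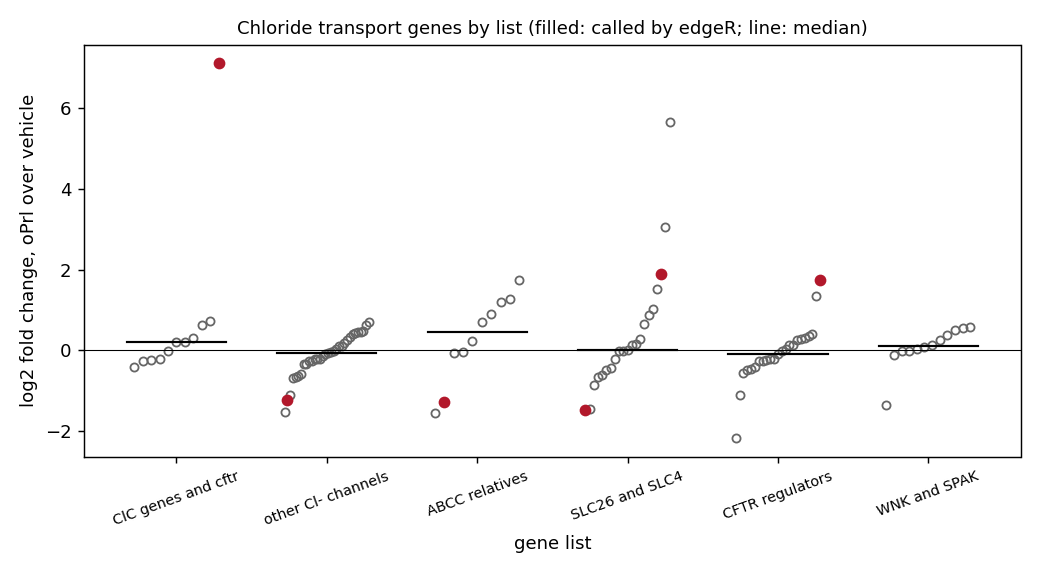
Log2 fold change, oPrl over vehicle, of each tested gene in the ClC and cftr set and in 5 further lists. Called genes are filled in red, and a line marks each list's median. The medians lay between -0.09 and 0.46, and the called genes were clc2c, ano1, abcc5, slc4a4b, slc26a11 and AHCYL1.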

How the data were processed

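Gill filament RNA was sequenced from 3 oPrl-injected and 3 vehicle-injected fish. Per the labels and the study's methods, the authors used bcl2fastq 2.20, Trimmomatic 0.36 and STAR 2.5.2b, mapped to Ensembl's Nile tilapia genome and used featureCounts for uniquely mapped reads. The deposited values are raw counts, not normalized. Neither the genome build nor the strand setting was stated (not given in the sources used here). A row without a gene ID, 0.0901% to 0.135% of a library, was left out.

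Genes with at least 10 counts in all (24878 of 32591) were fitted with edgeR 4.0.16 in R 4.3.3 (TMM, quasi-likelihood, Benjamini-Hochberg over all genes tested). Called genes had an adjusted p below 0.01 and a log2 fold change above 1 or below -1. CPM were scaled by TMM, and intervals came from the fit's standard error. DESeq2 1.42.0 was an alternative, beside other scalings and filters, robust estimation, a replicate block and leaving out each library. Both tools were tested on simulated data in which 200 genes changed.

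The members and lists were chosen with earlier results of these data known. Named genes were the members, the called genes of 7 pathway lists (otherwise that of lowest p) and the 3 nearest profiles of clc2c, clcn2c and cftr, except 1 gene that is not reported here, nor are the sums and counts of lists that hold it. The genes slc12a2, CLDN10, cldn10l2, cldn10a, cldn10b, SGK1, dab2, mlc1, ahcyl1, ca2, foxi1, foxi2, foxi3b and gcm2 were named after their values were seen. So were the marker genes lck, csf1ra, cdh5, kdrl and pecam1. Libraries of a group differed by more than sampling noise (chi-square per degree of freedom of 26.3 to 98.6). Replicates are separate fish. No sequence or gene length was used here.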

Additional observations from a re-analysis of the deposited data

How the results depend on the processing

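With other scalings, filters, a robust fit, DESeq2, the replicate block or an adjusted p under 0.05 at any fold change, the number of members called was 1 higher and 0 lower, as reported. With each library left out, it was 0 to 1 higher and 0 lower. It was 0 without vehicle replicate 1, where no gene of the series was called, and without vehicle replicate 2, where 22 genes were. The fits without oPrl replicates 1, 2 and 3 called 28, 215 and 5 genes, and that without vehicle replicate 3 called 148. DESeq2 called 1496 of all genes, compared with 349 by edgeR, and edgeR called 505 with library totals in place of TMM.

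Of 142 values of the 11 members under the alternatives, 9 changed sign and 2 lost the call, both of clc2c. The sign of clcn2a turned with library totals, to 0.16, where the median of all genes moved by 0.17. For wnk4b, DESeq2 gave -1.41. With a library left out, log2 fold changes ranged from -0.25 to 0.32 for clcn2a, from -0.087 to 1.56 for clcn1b, from -0.0065 to 0.61 for clcn4, from -0.10 to 0.36 for clcn7 and from -0.99 to 0.086 for cftr. The cause was not tested, and clcn1b rested on 30 counts.

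Deviations from the group means correlated at -0.09, -0.09 and -0.01 across all genes between oPrl and vehicle fish of the same number. Between fish of different numbers the correlations ranged from -0.04 to 0.13. With 3 fish per group, these values cannot settle whether the replicate numbers pair the fish. With the replicate number as a block, edgeR called 30 genes in all and 1 member, clc2c, while abcc5, slc26a11, slc4a4b, AHCYL1, kcnj1a.6 and ano1 lost their calls. In that fit the log2 fold change was 7.02 for clc2c and -0.41 for cftr, each with a standard error of 0.27. Without the block their standard errors were 0.52 and 0.47. Vehicle counts of 2 to 5 limit the precision of the fold change of clcn1b. For clc2c, with vehicle counts of 26 to 47, the standard error was 0.52 with all libraries and 0.32 without oPrl replicate 3.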
